A study of Mus musculus with 4 samples.

Results

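The genes described here encode the cyclins, the cyclin-dependent kinases (CDKs), the CDK inhibitors and the factors directly upstream and downstream of them. These 50 genes were chosen by symbol for their roles, with earlier results of these data known. Of the 50, 47 were rows of the deposited count table of 16591 genes, and Ccnd2, Cdkn2a and Cdkn2b were not analysed here. The filter on low counts kept 46 of the 47 among 11945 tested genes, and the 1 left out was Cdkn1c. RNA sequencing reads were counted in 2 libraries of a JQ1-resistant Eμ-Myc line (JQ1R) and 2 libraries of a JQ1-sensitive Eμ-Myc line (JQ1S). Both are mouse B-lymphoma lines of the C57BL/6 strain in which an immunoglobulin heavy-chain enhancer drives a Myc transgene, and both were grown as early-passage cells in medium, with no drug named in the labels. JQ1 blocks BET bromodomain proteins, readers of histone acetylation that help RNA polymerase to transcribe. Each kind of cell is represented by a single line, so a difference tied to resistance and a difference between any 2 lines cannot be told apart, and nothing in the labels says that the 2 libraries of a line came from separate cultures.

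Cyclins are regulatory subunits that switch on CDKs in turn through the division cycle. D-type cyclins with CDK4 or CDK6, then E-type cyclins with CDK2, phosphorylate the retinoblastoma (pocket) proteins, which releases E2F factors to transcribe the genes of DNA replication, while A-type and B-type cyclins with CDK2 and CDK1 drive S phase and mitosis. The INK4 inhibitors bind CDK4 and CDK6, and the CIP/KIP inhibitors bind cyclin-CDK complexes more widely. In B-cell precursors cyclin D3 and CDK6 are prominent forms, and MYC is known to drive Cdk4 and Ccnd2 and to oppose Cdkn1b.

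Promoter windows of RefSeq (build GRCm38.p6, the 250 bases before an annotated start) were found for 36 of the 46 tested members, in 41 windows. They were searched on both strands for the E2F site (TTTCGCGC, TTTGGCGC, TTTCCCGC or TTTGCCGC), the E-box that MYC-MAX dimers bind (CACGTG), the FOXO site (GTAAACA), the cell-cycle CHR element (TTTGAA) and the CCAAT box (CCAAT). None of these letters overlapped another in the windows printed. The E2F site was in 6 of the 41 windows (14.6%) against 1.86% of all 32817 windows. The CHR element was in 11 (26.8%) against 16.0%, and the CCAAT box in 22 (53.7%) against 33.8%. The E-box was in 5 (12.2%) against 6.02%, and the FOXO site in 2 (4.88%) against 3.16%. These shares are a description, and enrichment was not tested. The windows with an E2F site belonged to Cdc25a, Cdk1, Cdk2, E2f3, E2f7 and Rbl1. Printed below, with motif matches in capitals, are the windows of the paralogues Cdk4 and Cdk6, of Cdk18 and Cdkn1b, which differed between the lines, and of Cdk1, with matches for 3 of the motifs. They were chosen after their values were seen, and a match is a run of letters, not a measured binding site.
Cdk4 (chr10:127063285-127063534, plus strand): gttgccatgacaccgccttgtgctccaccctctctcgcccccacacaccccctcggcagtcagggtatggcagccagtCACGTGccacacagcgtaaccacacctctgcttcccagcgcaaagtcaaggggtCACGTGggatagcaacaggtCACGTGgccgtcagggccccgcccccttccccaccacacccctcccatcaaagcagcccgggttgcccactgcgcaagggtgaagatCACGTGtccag
Cdk6 (chr5:3343643-3343892, plus strand): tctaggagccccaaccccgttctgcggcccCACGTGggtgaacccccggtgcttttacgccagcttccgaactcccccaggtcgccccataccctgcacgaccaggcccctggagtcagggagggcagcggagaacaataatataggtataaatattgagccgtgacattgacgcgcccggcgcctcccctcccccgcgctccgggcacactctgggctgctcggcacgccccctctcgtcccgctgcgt
Cdk18 (chr1:132139686-132139935, minus strand): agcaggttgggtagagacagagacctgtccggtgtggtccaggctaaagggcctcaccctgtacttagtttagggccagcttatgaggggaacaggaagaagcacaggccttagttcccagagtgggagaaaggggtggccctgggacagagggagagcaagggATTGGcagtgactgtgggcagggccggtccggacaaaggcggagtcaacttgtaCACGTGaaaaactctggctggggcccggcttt
Cdkn1b (chr6:134920151-134920400, plus strand): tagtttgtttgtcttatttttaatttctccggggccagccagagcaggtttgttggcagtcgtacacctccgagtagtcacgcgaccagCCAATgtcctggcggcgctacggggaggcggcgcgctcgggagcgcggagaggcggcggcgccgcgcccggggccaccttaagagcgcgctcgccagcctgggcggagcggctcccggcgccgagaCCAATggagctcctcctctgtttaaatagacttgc
Cdk1 (chr10:69352913-69353162, minus strand): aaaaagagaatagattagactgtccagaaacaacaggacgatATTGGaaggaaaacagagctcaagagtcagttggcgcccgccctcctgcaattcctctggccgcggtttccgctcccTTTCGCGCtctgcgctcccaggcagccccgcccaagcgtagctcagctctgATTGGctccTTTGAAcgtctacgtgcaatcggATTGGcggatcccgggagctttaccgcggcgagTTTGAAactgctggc
The capitals mark 4 E-boxes in the Cdk4 window and 1 each in the windows of Cdk6 and Cdk18, with 1 CCAAT box in that of Cdk18. They mark 2 CCAAT boxes in the Cdkn1b window, and 1 E2F site, 2 CHR elements and 3 CCAAT boxes in the Cdk1 window, where a CCAAT box on the other strand reads ATTGG.

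Total counts were 10928239 and 11809635 in the resistant libraries and 13048103 and 10346007 in the sensitive libraries, so that 1 count was worth 0.0771 to 0.0972 CPM (counts per 1000000, scaled by TMM factors, which correct library totals for composition). The 8 B-cell markers examined were all in the table, with summed levels of 2147 to 2227 CPM in resistant and 2035 to 2076 CPM in sensitive libraries. Of the 8, Cd22 (log2 change 0.28, adjusted p = 0.0129) and Blk (0.56, adjusted p = 0.0159) were called higher in resistant cells by edgeR, as were 2.20% of all tested genes. DESeq2, another count test, called 1 of the 8. The part of these markers in the results below was not tested. Of 5 T-cell markers 1 was in the table (Cd3d, at most 0.231 CPM, with 0 counts in 1 library of each line), of 4 erythroid markers 1 (Klf1, at most 0.389 CPM) and of 4 stromal markers 0, and the others were not analysed here. The 3 of 5 myeloid markers in the table (Itgam, Csf1r and Mpo) summed to 1.85 to 2.11 CPM in resistant and 1.17 to 1.39 CPM in sensitive libraries.

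Per kilobase of exon, Cdk4 was the most abundant of the 47 genes in both lines, at 105 and 104 RPKM (reads per kb of exon per 1000000 reads) in resistant libraries and 102 and 106 in sensitive libraries. Next in resistant cells came Ccna2 with a mean of 79.4, Ccnb2 with 72.7, E2f4 with 71.5 and Ccni with 67.5 RPKM. In sensitive cells E2f4 stood at 85.8, Ccna2 at 77.5, Ccnb2 at 75.2 and Ccni at 63.1. The libraries of Ccna2 and Ccnb2 overlapped each other in the sensitive line, as did those of Ccnb2 and E2f4 in the resistant line, so their order there does not exceed the spread. At the low end, Cdk6 stood at 1.46, Cdk18 at 0.239 and Cdk14 at 0.0423 RPKM in resistant cells, against 1.92, 1.37 and 0.0493 in sensitive cells. Cdkn1c, which encodes the CIP/KIP inhibitor p57, had 0 counts in both resistant libraries and 1 and 3 counts in the sensitive libraries, at or under the floor of 3 counts per library, so no fold is given.

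**Figure D1:**
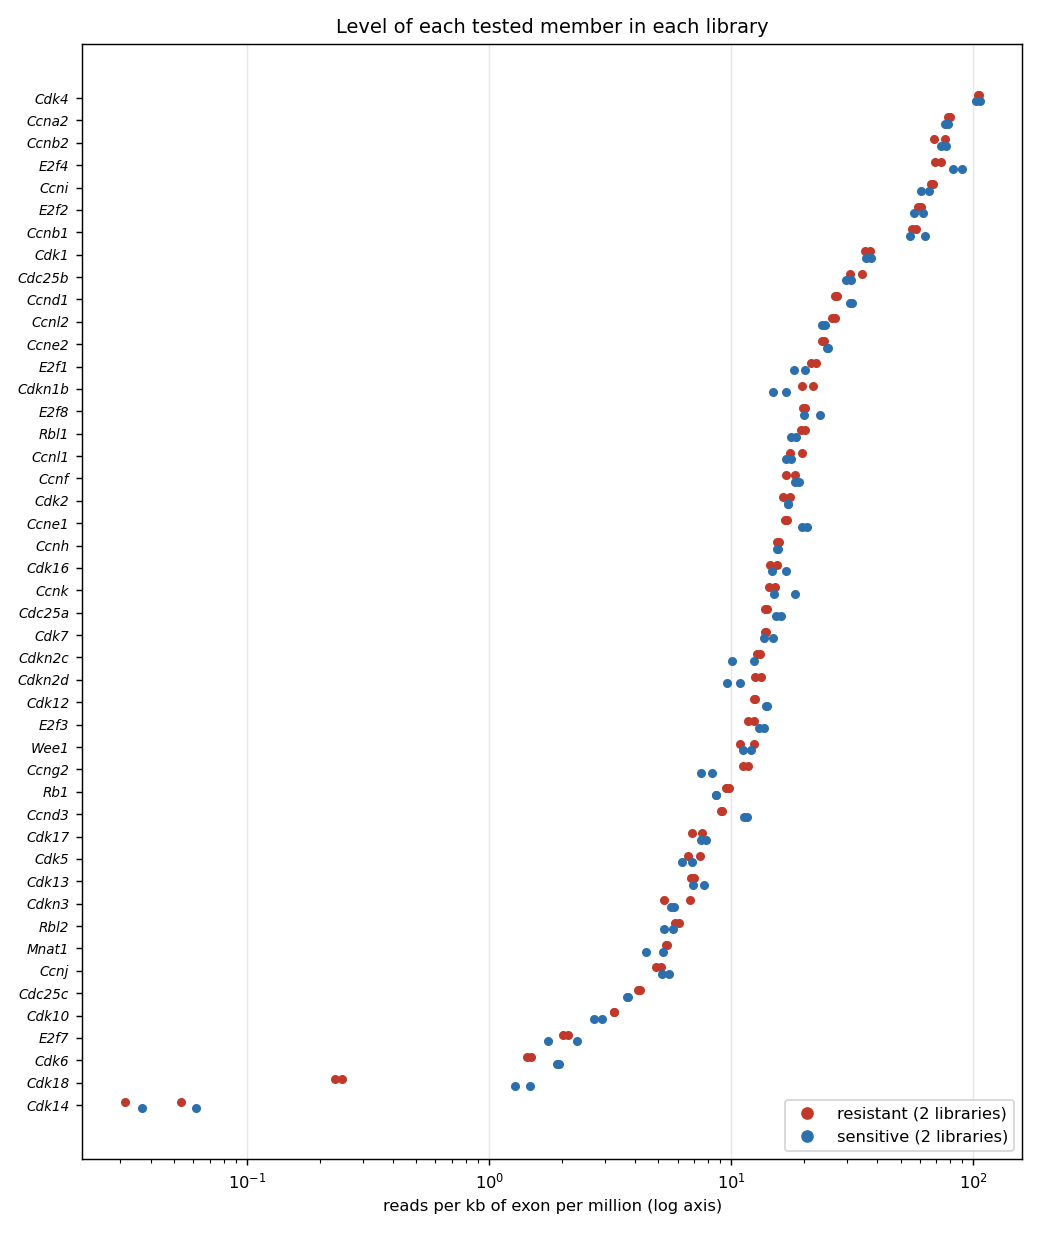
Level of each of the 46 tested genes in each library, in RPKM on a log axis, ordered by the mean in resistant cells. Each point is 1 library, resistant above sensitive. Levels span from Cdk4 at about 105 to Cdk14 below 0.1, and Cdk18 is the gene whose lines stand farthest apart.

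Between the lines, 2 of the 46 tested genes rose in resistant cells and 4 fell. The risers were Cdkn1b, which encodes the CIP/KIP inhibitor p27, and Ccng2, which encodes cyclin G2, an atypical cyclin linked to cell-cycle arrest. The genes that fell were Ccnd3 (cyclin D3), Cdk6, E2f4 and Cdk18. In bulk RNA of this kind, fewer cells with a transcript and less of it per cell cannot be told apart. Calls were made at an adjusted p below 0.05 in the quasi-likelihood test of edgeR across all 11945 tested genes, of which 3.73% were called, 2.20% higher and 1.52% lower in resistant cells. The members' shares were 13.0% in all, 4.35% higher and 8.70% lower. Because the list was chosen with earlier results of these data known, these shares are a description and not a test. The median log2 change of the 46 was 0.00, as it was over all tested genes, and 23 were positive and 23 negative. The median size of a log2 change, taken without its sign, was 0.12 in the 46 genes and 0.11 over all tested genes. Resistant and sensitive libraries were fully separated in 26 of the 46 genes (56.5%), 14 higher and 12 lower in resistant cells, against 47.3% of all tested genes, 24.1% higher and 23.2% lower. DESeq2, a second count test, called Ccng2, Cdkn1b, Ccnd3 and Cdk18 but not Cdk6 or E2f4, where it called 1.74% of all genes. With 1 library left out edgeR called 2.45% of genes without resistant replicate 1, 2.21% without resistant replicate 2, 11.3% without sensitive replicate 1 and 9.68% when the other sensitive library was left out, and the calls given below for such fits are read against these shares.

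**Figure D2:**
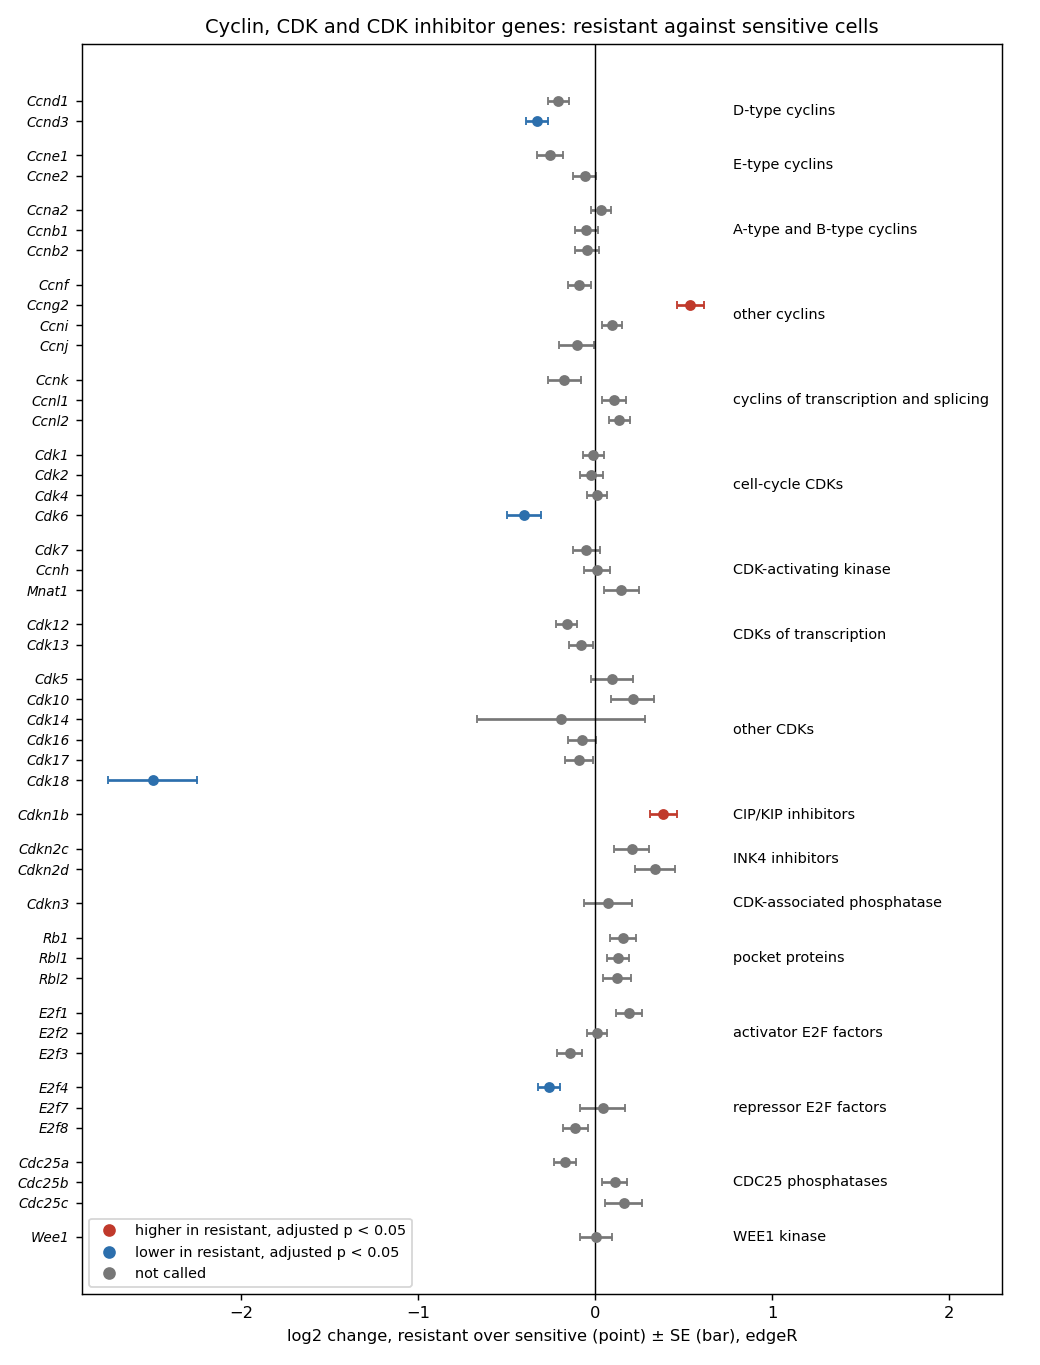
Log2 change of each of the 46 tested genes by role, resistant over sensitive, with points for the edgeR estimate and bars for its standard error. Red marks the 2 genes called higher, blue the 4 called lower and grey the 40 not called. Cdk18 stands apart at -2.50, and the other 5 called genes lie between -0.40 and 0.54.

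Of the D-type cyclins, which start the G1 phase programme with CDK4 and CDK6, Ccnd3 fell. Ccnd3 was at 80.5 and 79.4 CPM in resistant libraries and 98.9 and 102 CPM in sensitive libraries. The lines did not overlap, and the log2 change was -0.33 ± 0.06 (SE, n = 2 per line, adjusted p = 0.00621, edgeR). Its adjusted p was 0.0745 without resistant replicate 1 and 0.128 without resistant replicate 2, with log2 changes of -0.34 and -0.32. Ccnd3 lies on chromosome 17 at 47505051 to 47599691 of GRCm38, on the plus strand.

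Ccnd1, which encodes cyclin D1, was at 129 and 126 CPM in resistant libraries and 148 and 146 CPM in sensitive libraries. The lines did not overlap here either, but the difference did not pass the test (log2 change -0.21 ± 0.06, adjusted p = 0.0678). It was called when either sensitive library was left out (adjusted p = 0.0183 without replicate 1 and 0.00389 without replicate 2), where a lone sensitive library is assumed to vary like the resistant pair. In Ccnd1, 23.4% of exonic bases lie in exons of the gene LTO1 on the other strand, and the strand setting of the counting is not given in the sources used here. Of the reads per kb on these 2 D-type cyclins, Ccnd3 took 25.1% and 25.3% in resistant libraries and 26.3% and 27.3% in sensitive libraries, a difference of -1.60 percentage points. Ccnd1 was the more abundant transcript of the pair in every library. With the same reads divided by coding length, the Ccnd3 share was 38.7% and 38.9% in resistant libraries and 40.2% and 41.4% in sensitive ones.

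Neither E-type cyclin, the partners of CDK2 at the start of S phase, passed the test with all 4 libraries. Ccne1 was at 45.2 and 44.4 CPM in resistant libraries and 54.6 and 52.0 CPM in sensitive libraries (log2 change -0.25 ± 0.07, adjusted p = 0.0790), with no overlap. Leaving out each library in turn gave log2 changes of -0.29 to -0.22 for Ccne1. Ccne2 was at 84.8 and 82.5 CPM in resistant libraries and 86.7 and 87.6 CPM in sensitive libraries (log2 change -0.06 ± 0.06, adjusted p = 0.698). Its lines did not overlap either, a separation in this direction that 23.2% of all tested genes showed. In Ccne2, 17.4% of exonic bases lie in exons of Ints8 on the other strand.

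The cyclins of S phase and mitosis stood close together in the lines. Ccna2, which encodes cyclin A2, was at 327 and 321.4 CPM in resistant libraries and 321.1 and 312 CPM in sensitive libraries (log2 change 0.03 ± 0.05, adjusted p = 0.808). Even at this small change the lines of Ccna2 did not overlap. In Ccna2, 12.5% of exonic bases lie in exons of Exosc9 on the other strand. Ccnb1, which encodes cyclin B1, was at 243 and 236 CPM in resistant libraries and 265 and 230.1 CPM in sensitive libraries. Here the sensitive pair spanned the resistant pair, and the log2 change of -0.05 ± 0.07 (adjusted p = 0.764) became 0.06 without sensitive replicate 1 and -0.15 without sensitive replicate 2, where it was called (adjusted p = 0.0391). Ccnb2 (cyclin B2) had a log2 change of -0.05 (adjusted p = 0.781).

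Among the other cyclins Ccng2 rose. It was at 61.1 and 63.7 CPM in resistant libraries and 40.8 and 45.5 CPM in sensitive libraries, with no overlap, a 1.45-fold difference (log2 change 0.54 ± 0.08, adjusted p = 4.64e-04). The call held with each library left out in turn, at log2 changes of 0.46 to 0.61, and in DESeq2 (adjusted p = 8.60e-04). Ccng2 lies on chromosome 5 at 93267257 to 93276231, plus strand. The other 3 genes of this group, Ccnf, which encodes the F-box protein cyclin F, Ccni and Ccnj, had log2 changes of -0.09, 0.10 and -0.10 and were not called. Of the cyclins of transcription and splicing, Ccnk, the partner of CDK12 and CDK13 (-0.17), Ccnl1 (0.11) and Ccnl2 (0.14) were not called, with adjusted p-values of 0.251 or more. Without sensitive replicate 1 Ccni (0.15) and Ccnk (-0.32) were called, while without sensitive replicate 2 their log2 changes were 0.04 and -0.03 (adjusted p = 0.711 and 0.889).

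Of the 4 kinases that pair with the cell-cycle cyclins, only Cdk6 passed the test. Cdk6 fell, at 20.0 and 20.8 CPM in resistant libraries and 27.1 and 26.6 CPM in sensitive libraries, with no overlap (log2 change -0.40 ± 0.10, adjusted p = 0.0279). Its call was lost without resistant replicate 1 (adjusted p = 0.207), without resistant replicate 2 (0.125) and in DESeq2 (0.340), while the log2 change stayed between -0.43 and -0.37 under all 3. Cdk6 lies on chromosome 5 at 3341485 to 3531008, plus strand.

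Cdk4, its close paralogue, was at 342 and 339 CPM in resistant libraries and 331 and 345 CPM in sensitive libraries, and the sensitive pair spanned the resistant pair (log2 change 0.01 ± 0.05, adjusted p = 0.947). Cdk6 took 1.34% and 1.40% of the reads per kb on the pair in resistant libraries and 1.87% and 1.76% in sensitive libraries, so that Cdk4 transcripts made up most of this pair in both lines. The same reads were also divided by coding length, which gave higher Cdk6 shares. These were 5.15% and 5.39% in resistant libraries and 7.07% and 6.70% in sensitive libraries. The share was lower in resistant cells by either length. In Cdk4, 19.7% of exonic bases lie in exons of Tspan31 on the other strand. Cdk1, the mitotic kinase, was at 185 and 176 CPM in resistant libraries and 186 and 177 CPM in sensitive libraries (log2 change -0.01 ± 0.06, adjusted p = 0.954). Cdk2 was at 108 and 102 CPM in resistant libraries and 107 and 106 CPM in sensitive libraries (log2 change -0.02 ± 0.06, adjusted p = 0.912). The lines overlapped in each of these 3 genes. Of the 5 members with an E-box in a window, Cdk6 and Cdk18 fell, and Cdk4, Cdk7 and E2f3 were not called. E2f3 also had a window without an E-box. The called genes Ccnd3, Ccng2 and Cdkn1b had windows with no E-box, and no window was found for E2f4. Over all tested genes 1.52% were called lower, against 8.70% of the 46 tested members. A link between the motif and the changes was not tested.

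The CDK-activating kinase is a trimer of CDK7, cyclin H and MAT1 that phosphorylates other CDKs and RNA polymerase II. Its genes Cdk7, Ccnh and Mnat1 had log2 changes of -0.05, 0.01 and 0.15 and were not called. Cdk12 and Cdk13, kinases of transcript elongation, had log2 changes of -0.16 and -0.08 and were not called with all 4 libraries. With each library left out in turn, that of Cdk12 was -0.17 to -0.15.

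Cdk18, of the PCTAIRE subfamily of CDKs, showed the largest change among the 46 genes. It had 12 and 14 counts (1.10 and 1.18 CPM) in resistant libraries and 79 and 72 counts (6.089 and 6.997 CPM) in sensitive libraries. The sensitive libraries were 5.66-fold higher (log2 change, resistant over sensitive, -2.50 ± 0.25, adjusted p = 9.86e-06), and leaving out each library in turn gave -2.61 to -2.41. Its level was low in both lines, and it lies on chromosome 1 at 132112237 to 132139684, minus strand. Its subfamily relatives Cdk16 (-0.07) and Cdk17 (-0.09) were at 65.3 and 43.9 CPM on average in resistant cells and 68.9 and 46.7 CPM in sensitive cells and were not called. Cdk5 (0.10), known for its role in neurons, Cdk10 (0.21) and Cdk14 (-0.19 ± 0.48) were not called either, and Cdk14 rested on 7 to 12 counts per library.

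Among the CDK inhibitors Cdkn1b rose. It was at 88.9 and 98.6 CPM in resistant libraries and 67.7 and 76.5 CPM in sensitive libraries, with no overlap, a 1.31-fold difference (log2 change 0.38 ± 0.08, adjusted p = 0.00737). The call was lost without resistant replicate 2 (log2 change 0.31, adjusted p = 0.159) and held in DESeq2 (adjusted p = 0.0237). Cdkn1b lies on chromosome 6 at 134920401 to 134925513, plus strand.

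Both measured INK4 genes stood higher in resistant libraries, without passing the test with all 4 libraries. Cdkn2d, which encodes p19, was at 20.8 and 19.8 CPM in resistant libraries and 15.1 and 17.1 CPM in sensitive libraries (log2 change 0.34 ± 0.11, adjusted p = 0.118). Cdkn2c, which encodes p18, was at 34.1 and 35.2 CPM in resistant libraries and 27.1 and 33.4 CPM in sensitive libraries (log2 change 0.21 ± 0.10, adjusted p = 0.314). In neither gene did the lines overlap, a separation in this direction that 24.1% of all tested genes showed. Without sensitive replicate 2 the log2 changes of Cdkn2d and Cdkn2c were 0.42 and 0.35. Without sensitive replicate 1 they were 0.24 and 0.05. Each of these fits holds a lone sensitive library, and its calls are not given here for these genes. Cdkn3, which encodes a phosphatase that acts on CDKs, had a log2 change of 0.07 ± 0.13 and was not called.

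**Figure D3:**
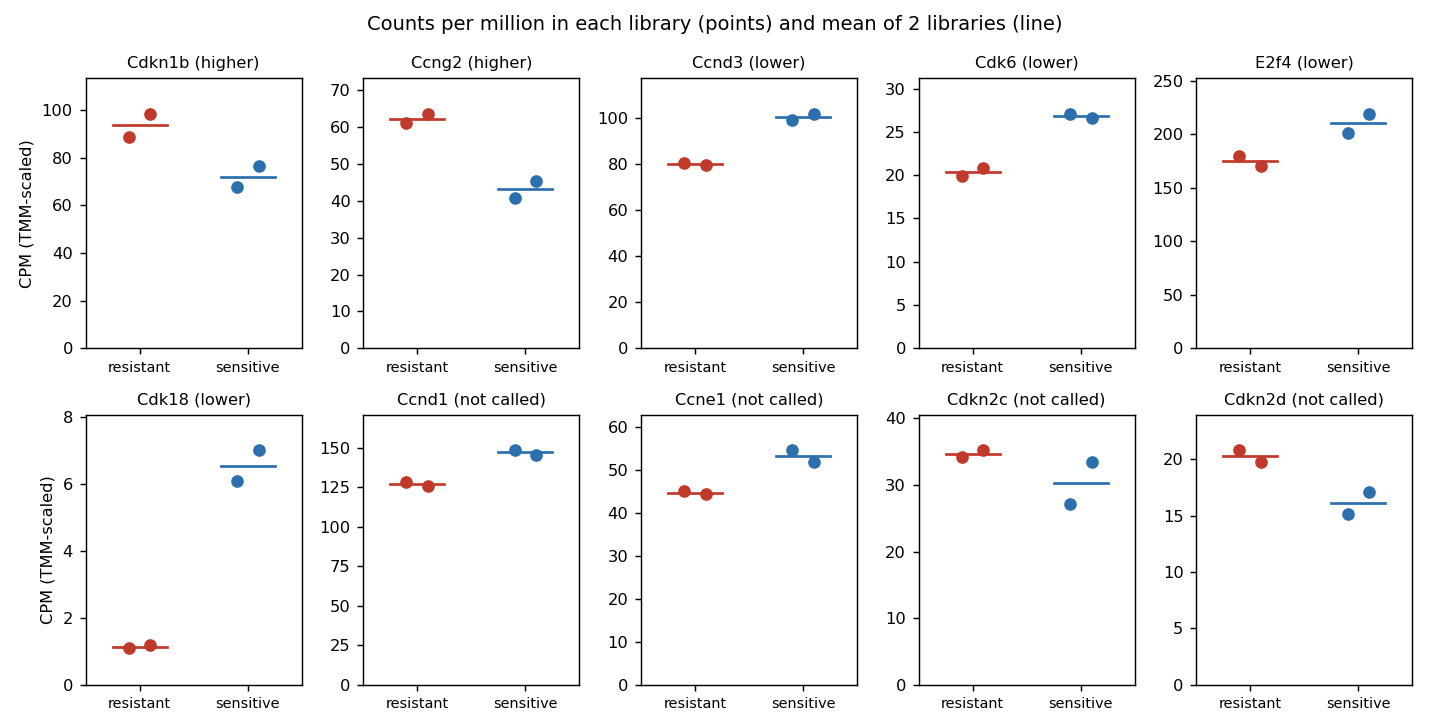
CPM of the 6 called genes and of 4 others in each library, with points for libraries, lines for the mean of 2 libraries and axes that start at 0. Resistant libraries lie above sensitive ones in Cdkn1b, Ccng2, Cdkn2c and Cdkn2d, and below them in Ccnd3, Cdk6, E2f4, Cdk18, Ccnd1 and Ccne1.

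The pocket proteins, which hold E2F factors inactive until CDKs phosphorylate them, were not called. Rb1 was at 57.1 and 58.7 CPM in resistant libraries and 52.0 and 51.8 CPM in sensitive libraries (log2 change 0.16 ± 0.07, adjusted p = 0.273). Rbl1, which encodes p107, was at 117 and 120 CPM in resistant libraries and 106 and 111 CPM in sensitive libraries (0.13 ± 0.06, adjusted p = 0.305). Rbl2, which encodes p130, was at 44.2 and 45.9 CPM in resistant libraries and 39.7 and 43.2 CPM in sensitive libraries (0.12 ± 0.08, adjusted p = 0.466). In all 3 genes every resistant library was above every sensitive one, a separation in this direction that 24.1% of all tested genes showed. Exons of other genes cover 14.9% of the exonic bases of Rb1 and 21.0% of those of Rbl2, and such overlap is not listed for every member.

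Of the E2F factors, E2f4, which with the pocket proteins represses cell-cycle genes in resting cells, fell. It was at 180 and 170.5 CPM in resistant libraries and 201 and 219 CPM in sensitive libraries, with no overlap (log2 change -0.26 ± 0.06, adjusted p = 0.0241). The call was lost without resistant replicate 1 (adjusted p = 0.0915), without resistant replicate 2 (0.412) and in DESeq2 (0.0601), at log2 changes of -0.30, -0.22 and -0.26. E2f4 lies on chromosome 8 at 105297663 to 105305370, plus strand. The atypical repressors E2f7 and E2f8 had log2 changes of 0.04 ± 0.13 and -0.11 ± 0.07 and were not called. That of E2f8 was -0.22 without sensitive replicate 1, where it was called (adjusted p = 0.00703), and 0.00 without sensitive replicate 2.

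Of the activator E2F factors, E2f1 was at 67.5 and 70.5 CPM in resistant libraries and 57.3 and 63.7 CPM in sensitive libraries (log2 change 0.19 ± 0.07, adjusted p = 0.184). It was called without sensitive replicate 2 (0.27, adjusted p = 0.00594), and its log2 change was 0.12 without sensitive replicate 1 (adjusted p = 0.368). E2f2 was at 295 and 288 CPM in resistant libraries and 277 and 302 CPM in sensitive libraries (0.01 ± 0.06, adjusted p = 0.951). E2f3 was at 63.5 and 67.4 CPM in resistant libraries and 70.7 and 74.2 CPM in sensitive libraries (-0.14 ± 0.07, adjusted p = 0.313). The estimate was positive for E2f1, negative for E2f3 and smaller than its standard error for E2f2. None of the 3 was called with all 4 libraries.

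The CDC25 phosphatases, which remove the inhibitory phosphates that WEE1 places on CDKs, were not called with all 4 libraries. Cdc25a was at 110 and 113 CPM in resistant libraries and 122 and 129 CPM in sensitive libraries (log2 change -0.17 ± 0.06, adjusted p = 0.158). Leaving out each library in turn gave log2 changes of -0.21 to -0.13 for Cdc25a. Cdc25b and Cdc25c had log2 changes of 0.11 and 0.16. Wee1 was at 37.0 and 42.4 CPM in resistant libraries and 38.1 and 41.4 CPM in sensitive libraries, for a log2 change of 0.00 ± 0.09 (adjusted p = 0.987).

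**Figure D4:**
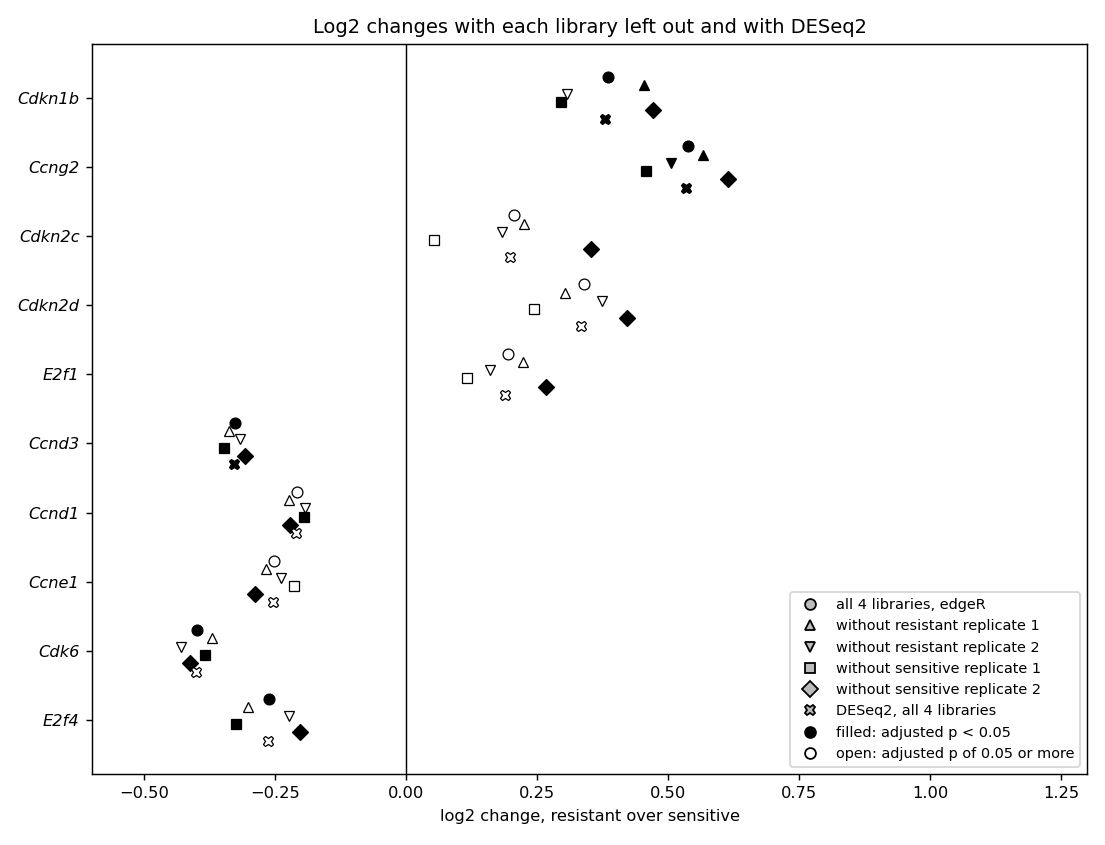
Log2 changes of 10 genes with all 4 libraries, with each library left out in turn and with DESeq2, filled where the adjusted p is below 0.05. Ccng2 is filled at every point, Cdkn1b is open without resistant replicate 2, and Ccnd3, Cdk6 and E2f4 are open when either resistant library is left out.

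Other genes of the cycle were read from 4 lists, whose counts of calls stand against the 3.73% called over all tested genes in edgeR and 1.74% in DESeq2. A list of this size with 1 call or 0 calls is near that background. Of 17 tested cyclin and CDK genes outside the 46, 1 was called, Cdk19, a kinase of the Mediator complex, which rose (log2 change 0.28 ± 0.07, adjusted p = 0.0333). The CIP/KIP gene Cdkn1a, which encodes p21, was at 2.29 and 2.02 CPM in resistant libraries and 1.23 and 1.85 CPM in sensitive libraries (0.51 ± 0.32, adjusted p = 0.452). Ccng1, the paralogue of Ccng2, had a log2 change of 0.23 (adjusted p = 0.0676). Of 25 E2F partners and regulators of CDK activity, 1 was called, Btg1, an antiproliferative gene, which rose (0.33 ± 0.07, adjusted p = 0.0124). Of 23 genes of G2 and M phase, 1 was called, the mitotic kinase Plk1, which fell (-0.25 ± 0.06, adjusted p = 0.0231). Cdk19, Btg1 and Plk1 each lost their call without resistant replicate 1 (adjusted p = 0.275, 0.139 and 0.188), without resistant replicate 2 (0.312, 0.0793 and 0.368) and in DESeq2 (0.297, 0.0949 and 0.0733). Over these 3 fits the log2 change stayed between 0.27 and 0.28 for Cdk19, 0.32 and 0.35 for Btg1 and -0.27 and -0.23 for Plk1.

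Of 28 E2F target genes of S phase, edgeR and DESeq2 called 0, and 3 had an unadjusted edgeR p below 0.05, as had 16.9% of all tested genes. The smallest adjusted p-values in this list were those of the helicase subunit Mcm4 (log2 change -0.16, adjusted p = 0.125) and the thymidine kinase Tk1 (0.19, adjusted p = 0.141). The median log2 change was -0.02 over the E2F targets, -0.03 over the genes of G2 and M phase, -0.02 over the E2F partners and regulators and -0.04 over the other cyclin and CDK genes, against 0.00 over all tested genes. The proliferation marker Mki67 had a log2 change of 0.02 ± 0.07 (adjusted p = 0.929).

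**Figure D5:**
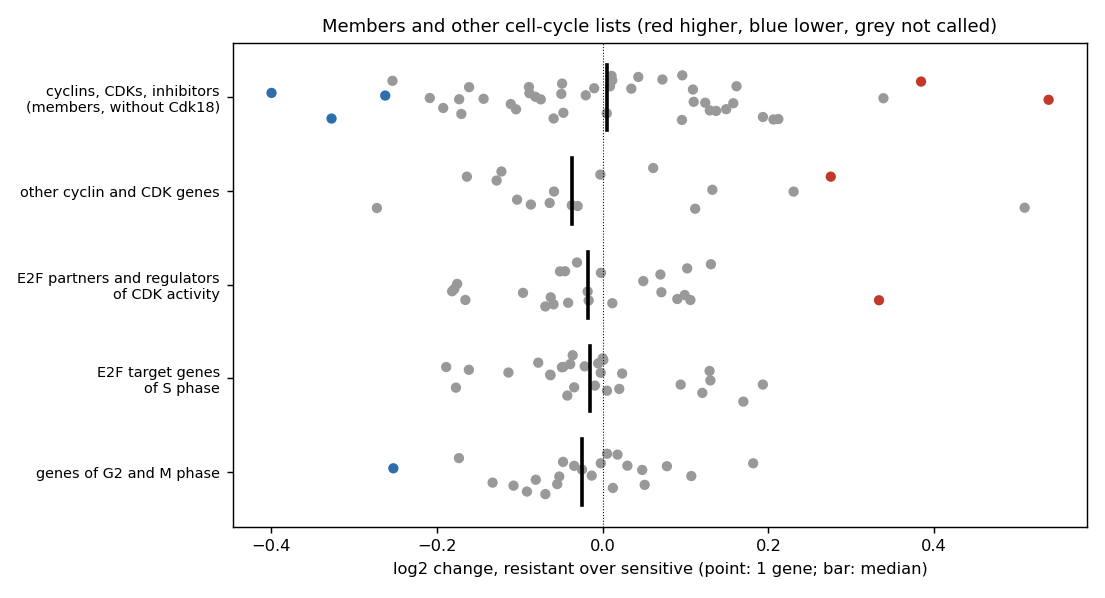
Log2 changes of the described genes without Cdk18 (at -2.50, off the axis) and of the 4 further cell-cycle lists, with 1 point per gene and a bar at the median. Red marks higher, blue lower and grey uncalled genes, and the 4 lists outside the described genes hold 3 called genes among them.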

How the data were processed

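Per the labels' protocols, RNA was purified on columns, and an Illumina TruSeq RNA kit was used for the libraries. The authors' deposited counts are whole reads per Ensembl gene, not normalized. Per the submitters' processing notes, GRCm38 and mm10 were the builds, and HTSeq, TopHat, Bowtie2, cutadapt 1.7, FastQC and limma the tools. The sources used here do not state what each tool did, the strand setting or which annotation was counted. Each gene of the deposited table had at least 4 counts in all, 0 rows named no gene, and 0 columns were left unused.

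Symbols, positions and exon lengths came from GENCODE M21 (GRCm38), which matched 16407 of 16591 identifiers. Counts were fitted with edgeR 4.0.16 in R 4.3.3 (glmQLFit, glmQLFTest) on the line alone, after TMM scaling and filterByExpr (minimum count 10, minimum total 15). P-values were adjusted by Benjamini-Hochberg over all tested genes, and genes were called below 0.05. Standard errors came from the quasi-likelihood F statistic. P-values measure the spread between these libraries, which may be technical. Alternatives comprised other scalings and filters, DESeq2 1.42.0, limma-voom (limma 3.58.1), the replicate number as a block, and leaving out each library.

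The described genes and all lists were chosen with earlier results of these data known. Values in every library are given for the called members and for genes of central role listed by name. The other members are given by range or log2 change. Of the further lists the called genes are named. Uncalled genes of smallest p are named only for the other cyclin and CDK genes and the E2F targets. Mki67 and Cdkn1a were named after their values were seen. The fit was tested on simulated data with known changes in genes above a low mean level. It recovered 26 of 50 genes changed 1.25-fold and 42 of 50 changed 1.5-fold, with 9 false calls. At 2-fold and 4-fold it recovered 50 of 50.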

Additional observations from a re-analysis of the deposited data

How the results depend on the processing

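The 6 called genes kept their direction under every alternative, and their calls held under other scalings (DESeq2's factors, library size only, upper quartile), under no filter and a stricter one, in limma-voom and with the replicate block. DESeq2 called 208 genes in all against 445 in edgeR, and 2 of the described genes lower against 4. With a library left out, the count over all genes ranged from 270 to 1381, that of described genes called higher from 1 to 5 and that of genes called lower from 1 to 8. Without resistant replicate 1, 302 genes were called, without resistant replicate 2 270, without sensitive replicate 1 1381 and without sensitive replicate 2 1187, each time with the remaining pair supplying all the spread. The cause was not tested. Replicate numbers are shared between the lines, but the labels do not say that they pair the libraries, and the deviations of equal numbers correlated at -0.02 across genes. With the replicate block 595 genes were called, 432 of them among the 445, and the described genes called remained 2 higher and 4 lower. The Cdk6 share of Cdk4 and Cdk6 reads differed by -0.44 points per kb of exon, by -0.34 with the longest transcript, -1.62 with the coding length and -1.73 with raw counts. That of Ccnd3 differed by -1.60 points, or by -1.99 to -1.97 over the other lengths and raw counts and -2.06 to -1.14 with a library left out.

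No called gene changed sign. Among uncalled genes, Cdk1 had a log2 change of 0.00174 with library size only, and Wee1 of -0.00071 in DESeq2 and -0.00299 with the replicate block. With a library left out, 13 uncalled genes changed sign: Ccnb1, Ccnb2, Cdk1, Cdk2, Cdk4, Cdk7, Ccnh, Cdk14, Cdk16, Cdkn3, E2f2, E2f7 and Wee1. Their log2 changes ranged from -0.148 to 0.0572 for Ccnb1, -0.125 to 0.0266 for Ccnb2, -0.0475 to 0.0277 for Cdk1, -0.0666 to 0.0251 for Cdk2, -0.0174 to 0.0387 for Cdk4, -0.111 to 0.0217 for Cdk7, -0.00768 to 0.0255 for Ccnh, -0.613 to 0.183 for Cdk14, -0.172 to 0.0164 for Cdk16, -0.11 to 0.244 for Cdkn3, -0.0499 to 0.0702 for E2f2, -0.155 to 0.234 for E2f7 and -0.100 to 0.0967 for Wee1. Depth limited Cdk14, where 7 to 12 counts per library went with a standard error of 0.48, and Cdkn1c, which was not tested.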

Other observations

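The tested genes within 1 Mb of each called gene were read for changes of the same kind, as values only. Around Cdk18, 0 of 26 tested neighbours were called, with a median log2 change of 0.01. The counts were 0 of 6 around Ccng2 and 0 of 9 around Cdkn1b. Around Ccnd3, 1 of 31 was called, Srf, which was lower in resistant cells. Around Cdk6, 1 of 12 was called, Cyp51, and around E2f4, 1 of 44, Carmil2, both higher in resistant cells and so opposite in direction to Cdk6 and E2f4. Over all tested genes 3.73% were called.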
